A study of Mus musculus with 9 samples.

Results

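The transcripts of proteasome genes were compared between mouse embryonic stem cells lacking Sirt6, which encodes a histone deacetylase, and their wild-type counterparts. The genes were the 46 rows, of 23366 in the count table, whose symbol is Psma, Psmb, Psmc, Psmd, Psme, Psmf or Psmg followed by a number, leaving out the 3 immunoproteasome genes Psmb8, Psmb9 and Psmb10. The rule reads symbols and no measured value, and all 46 genes passed the filter on low counts. Each group had 3 libraries of total RNA: wild-type cells and Sirt6 knockout cells. All of them were embryonic stem cells of the strain 129 SvJae F1 at passage 21, kept with leukaemia inhibitory factor (LIF) and 10% fetal bovine serum. The labels do not say how many knockout clones were used or whether replicates were separate cultures, so the p-values reflect spread among these libraries alone, and that spread may be technical. A further group of wild-type cells deprived of glucose was not analysed here.

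The proteasome is the large protease of the cytosol and nucleus that degrades proteins tagged with ubiquitin. Its barrel, the 20S core, is built from outer alpha rings (Psma genes) that gate the entrance and inner beta rings (Psmb genes) that hold the cutting sites. The 19S particle caps the barrel. Its base carries ATPases (Psmc genes) that unfold substrates and pull them in, and its lid (most Psmd genes) removes the ubiquitin chain. Embryonic stem cells are known for high proteasome activity. Since the subunits work in fixed proportions, their transcripts are a natural set to read side by side.

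Total counts ran from 20107037 to 29267115 per library. Sirt6 was at 13.0, 14.3 and 13.2 CPM (counts scaled to the size of the library) in wild-type replicates 1 to 3 and at 0.378, 0.246 and 0.300 CPM in knockout replicates 1 to 3, in the direction of the labels. Of 10 stem cell markers, 10 were expressed in both groups, Pou5f1 at 1650.3 ± 133 CPM in wild type and 1198 ± 152 CPM in the knockout (SD, n = 3). Of these 10, 3 rose while 4 fell, 70% beside the 55.7% of all tested genes that were called. Of 10 fibroblast (feeder cell) markers, 6 could be tested and rose, where 27.9% of all tested genes were called higher. Col1a2, Col6a2 and Acta2, at 8 counts or fewer per wild-type library, passed the filter on low counts only through the knockout libraries. Col1a1, at 16, 17 and 10 counts in wild-type replicates 1 to 3, would not have passed on the wild-type libraries alone. The summed level of the 10 went from 4.35 to 5.06 CPM in wild type to 32.2 to 40.1 CPM in the knockout. Tagln alone went from 2.21 ± 0.653 to 21.7 ± 3.89 CPM. Group means of the untested Col3a1, Postn and Dcn were 0.123 CPM or less, and Lum was at 0 in both groups. Of 10 primitive endoderm markers, 9 could be tested and 8 fell, where 27.8% of all tested genes were called lower. Gata6, at 6 counts or fewer per knockout library, passed that filter only through the wild-type libraries. Sox17, at 15, 7 and 2 counts in knockout replicates 1 to 3, would not have passed on the knockout libraries alone. The summed level of these 10 went from 246 to 280 CPM in wild type to 33.7 to 53.0 CPM in the knockout. Whether feeder or endoderm cells were present, and their part in the proteasome values, was not tested. Fewer cells of a type cannot be told apart from less RNA per cell. The knockout libraries differed more among themselves than the wild-type libraries did: the chi-square per degree of freedom between knockout replicates 1 and 3 was 87.6, against 3.73 to 11.2 within wild type. That difference ran with transcript length. Genes with transcripts under 1.5 kb had a median of -0.20, 0.09 and 0.32 (log2 CPM against the wild-type mean) in knockout replicates 1 to 3. Genes over 3 kb had 0.03, -0.09 and -0.20. Wild-type replicates 1 to 3 ran the same way at smaller size, with -0.08, 0.01 and 0.07 for the shorter genes. The longer genes had 0.03, -0.0008 and -0.03 there. The noncoding RNA Rmrp took 0.846%, 1.09% and 1.72% of counts in knockout replicates 1 to 3 and 0.714% to 0.785% in wild type. Rn45s, also noncoding, took 4.91%, 3.30% and 3.71% in knockout replicates 1 to 3. In wild-type replicates 1 to 3 it took 9.09%, 9.23% and 7.54%.

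Most proteasome transcripts did not pass the test of a difference. At an adjusted p under 0.05 (edgeR's quasi-likelihood test, Benjamini-Hochberg over 14988 genes), 3 members rose and 3 fell, 13.0% of the 46, where 55.7% of all tested genes were called, 27.9% higher and 27.8% lower. The assembly chaperone gene Psmg2, the alpha subunit gene Psma4 and the lid gene Psmd8 rose. The lid genes Psmd11 and Psmd7 and the thymus-type beta subunit gene Psmb11 fell. The median log2 fold change of the members was 0.05, against 0.01 over all tested genes, and the median size of a change was 0.13 against 0.44. No member reached a log2 fold change of 1 in size, and 3 (Psmg2, Psmd11 and Psmd7) passed 1.5-fold. Of the 40 members not called, 33 had a 95% interval that lay wholly within 1.5-fold in either direction. For the other 7 the interval reached past 1.5-fold in 1 direction, so a change of that size lay within it. The groups did not overlap for 8 members, 3 higher and 5 lower in the knockout, against 63.2% of all tested genes (31.2% higher and 32% lower).

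The few calls stood beside a wide spread among the knockout libraries. The median coefficient of variation of a member was 6.06% in wild type and 20.6% in the knockout, against 6.79% and 14.1% over all tested genes. Knockout replicate 1 was the lowest of the 6 libraries for 31 members, and knockout replicate 3 the highest for 30. The member medians (log2 CPM against the wild-type mean) were -0.27, 0.06 and 0.26 in knockout replicates 1 to 3. In wild-type replicates 1 to 3 they were -0.08, -0.006 and 0.08, the same order at smaller size. Leaving out knockout replicate 1 raised the number of called members to 23 (19 higher and 4 lower), or 50% of the members against 65.5% of all genes. Leaving out knockout replicate 3 gave 1 higher and 6 lower (15.2%, against 56.8% of all genes). Leaving out knockout replicate 2, or wild-type replicate 1, gave 1 higher and 2 lower (6.52%, against 47.1% and 46.1%). Without wild-type replicate 2 the count was 1 higher and 3 lower (8.7%, against 46.4%). With the dependence on transcript length and GC content taken out of each library, 4 members were higher and 15 lower. That was 41.3% of the members, against 68.3% of all genes. Psmg2, Psmd11 and Psmd7 were called in the same direction in all 15 alternatives to the analysis. An adjusted p under 0.05 was given to 7 members in the authors' deposited table, where 45.8% of 18300 genes had one: the 6 named above, in the same directions, and Psma7.

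**Figure D1:**
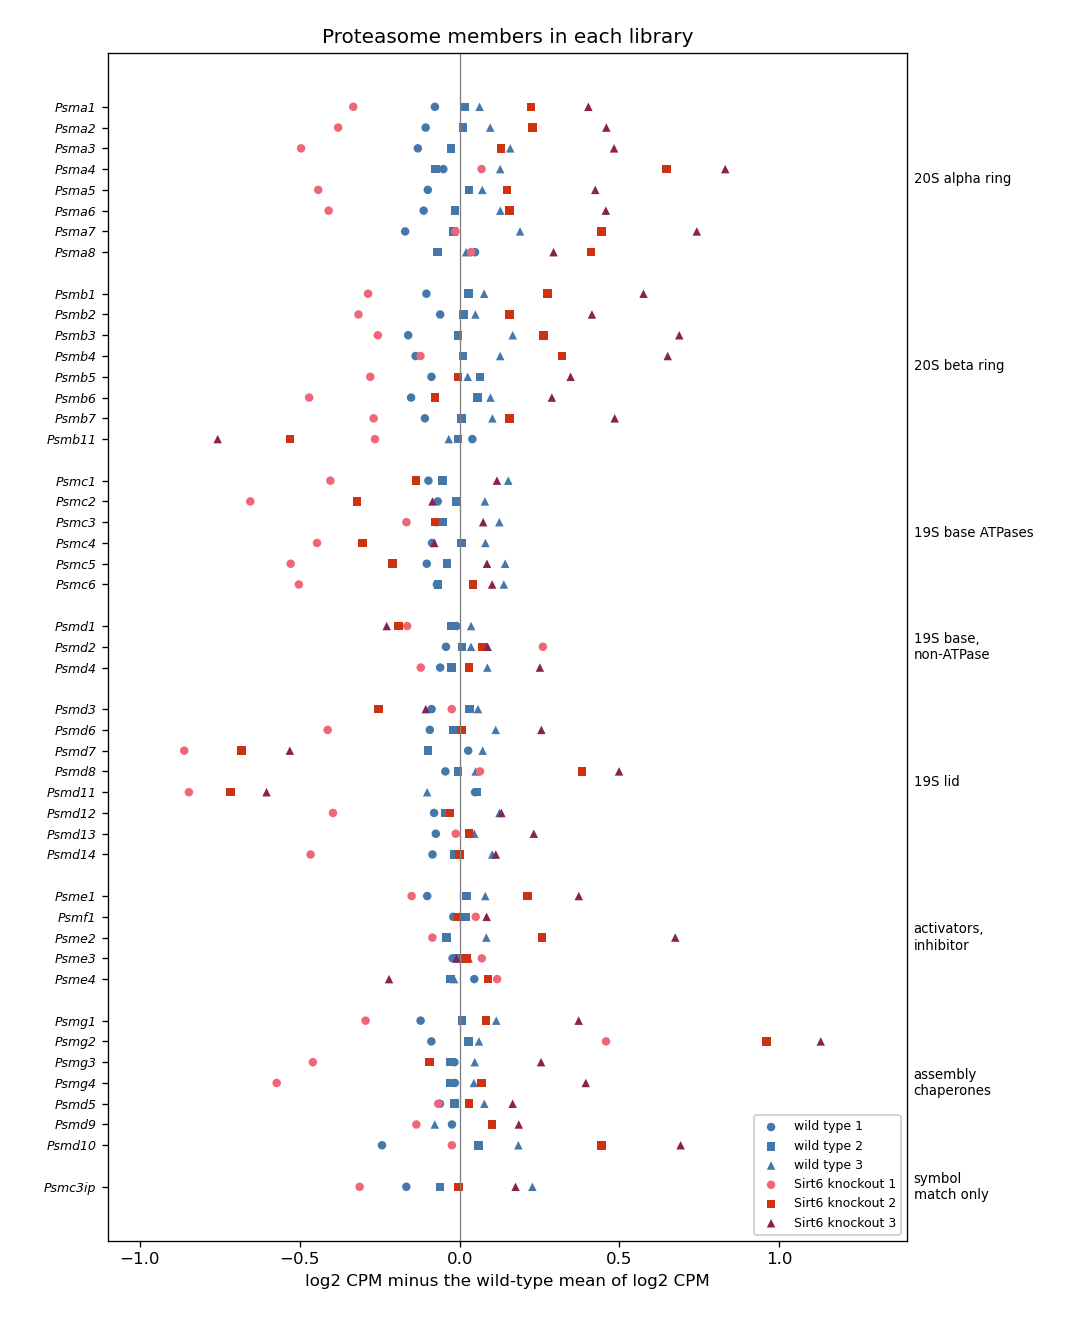
Level of each proteasome member in the 6 libraries, as log2 CPM minus the wild-type mean of log2 CPM (x axis), with genes grouped by role (y axis). Blue symbols are wild-type replicates and red symbols knockout replicates. Knockout replicate 1 was the lowest library for 31 of 46 members and knockout replicate 3 the highest for 30, while Psmd7 and Psmd11 lay below and Psmg2 above all wild-type libraries in each knockout library.

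**Figure D2:**
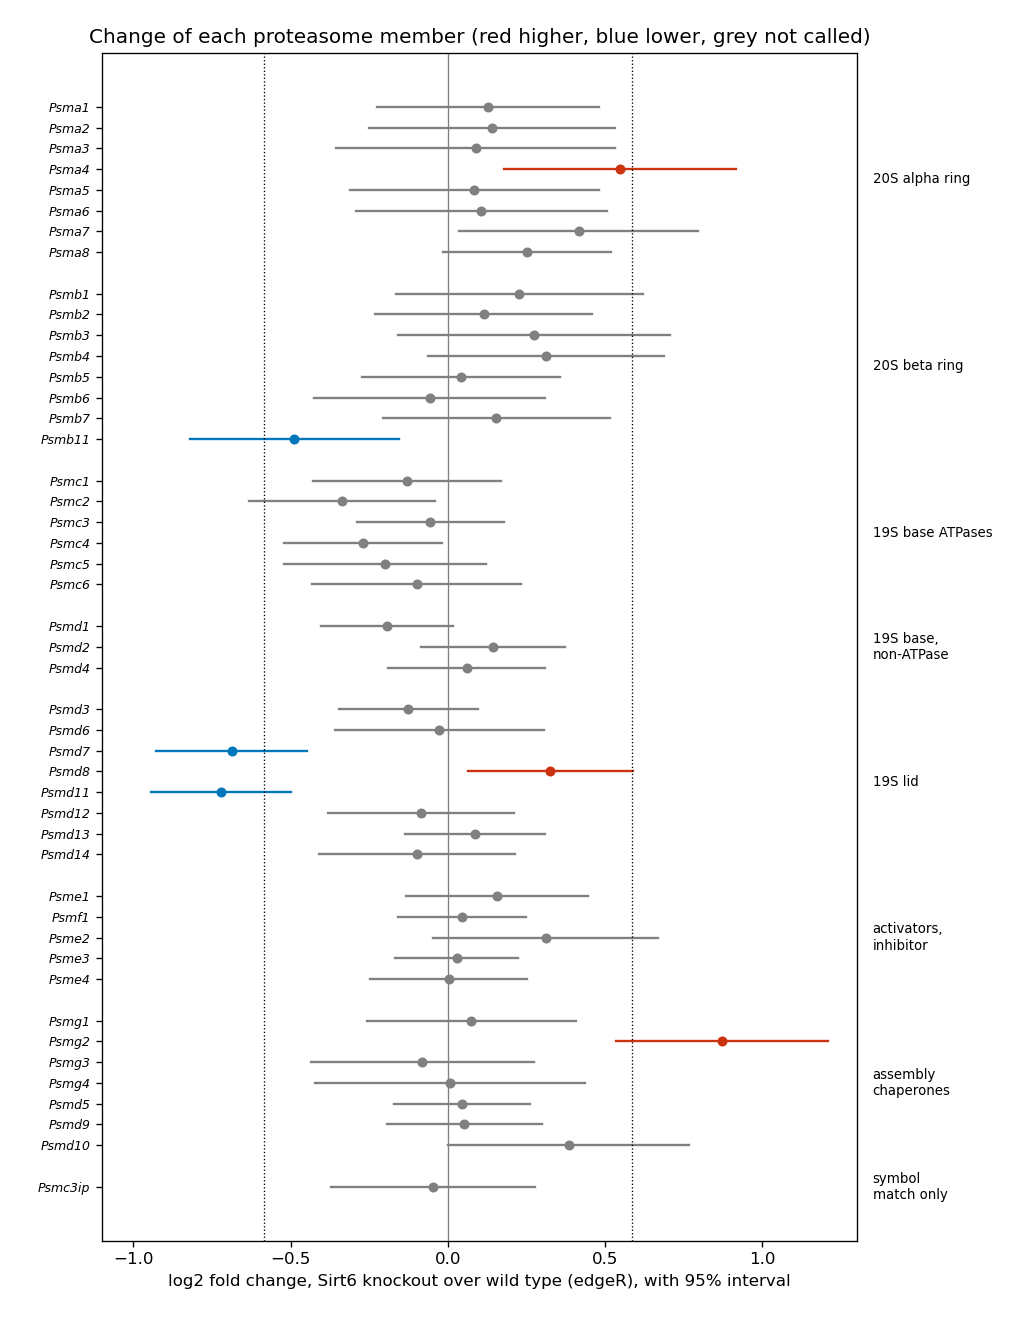
Log2 fold change of each member, knockout over wild type, with its 95% interval (x axis), by gene and role (y axis). Red marks the 3 genes called higher, blue the 3 called lower and grey the 40 not called. Dotted lines mark a 1.5-fold change in either direction.

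The alpha ring forms the gate of the core, and 1 of its 8 genes, Psma4, rose while 0 fell. Psma4 was at 167, 164 and 189 CPM in wild-type replicates 1 to 3 and at 182, 271 and 308 CPM in knockout replicates 1 to 3. Knockout replicate 1 lay within the wild-type range and the other 2 knockout libraries above it. The log2 fold change was 0.55 ± 0.17 (± SE, adjusted p = 0.0168, edgeR). This call ended without wild-type replicate 1 or 2 or knockout replicate 2 or 3 (adjusted p 0.0573 to 0.0756). Psma7, which lies next to Psma4 in the ring of textbook structures, was at 187, 208 and 239.9 CPM in wild type and 209, 286 and 352 CPM in the knockout, and just missed the threshold (0.42 ± 0.17, adjusted p = 0.0601). It passed with DESeq2 (adjusted p = 0.0363), without knockout replicate 1 (0.60, adjusted p = 0.000375), with total counts as the scaling (0.0124) and in the authors' deposited table (log2 fold change 0.41, adjusted p = 0.0421). The remaining constitutive alpha genes, Psma1, Psma2, Psma3, Psma5 and Psma6, had log2 fold changes of 0.08 to 0.14 with adjusted p-values from 0.518 to 0.729. In each of these 5 genes knockout replicate 1 was below and knockout replicate 3 above every wild-type library. Psma1 for example was at 169, 179.8 and 186 CPM in wild type and at 141, 208 and 235 CPM in the knockout. Psma8, the testis form that replaces Psma7 in germ cells, was low, at 14.1 ± 0.592 CPM in wild type and 16.9 ± 2.19 CPM in the knockout (adjusted p = 0.0994), and was called higher without knockout replicate 1 (0.00486) and with total counts as the scaling (0.0245).

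The beta ring holds the proteolytic sites, which are carried by Psmb5 (chymotrypsin-like), Psmb6 (caspase-like) and Psmb7 (trypsin-like). None of these 3 genes passed the test. Psmb5 was at 102 ± 5.47 CPM in wild type and 105 ± 22.9 CPM in the knockout, with a 95% interval of the log2 fold change from -0.27 to 0.36. Psmb6 went from 285 ± 25.7 to 274 ± 71.2 CPM (interval -0.43 to 0.31), and Psmb7 from 280.2 ± 20.5 to 312 ± 79.7 CPM (interval -0.21 to 0.52). The structural genes Psmb1, Psmb2, Psmb3 and Psmb4 had log2 fold changes of 0.11 to 0.31, and none passed. Psmb4, at 290.5, 322 and 349 CPM in wild type and 294, 399 and 502 CPM in the knockout, was the furthest from no change among them (adjusted p = 0.140), and was called higher without knockout replicate 1 (0.50, adjusted p = 0.00114) and with total counts as the scaling (0.0326).

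Psmb11 was the only beta gene that fell. It encodes the catalytic subunit of the thymoproteasome, which is made in the cortex of the thymus, and its level here was the lowest of all members. It was at 6.26, 6.06 and 5.95 CPM in wild type and 5.07, 4.22 and 3.60 CPM in the knockout, with no overlap. The log2 fold change was -0.49 ± 0.15 (adjusted p = 0.0176, edgeR), and the call ended with total counts as the scaling (adjusted p = 0.0938), without wild-type replicate 1 (0.0604) and without knockout replicate 2 (0.0622).

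The base of the 19S particle is driven by the ATPase genes Psmc1 to Psmc6. All 6 had a negative log2 fold change, from -0.34 to -0.06, except that Psmc3 and Psmc6 were above 0 with total counts as the scaling (0.06 and 0.02) and without knockout replicate 1 (0.0049 and 0.08), and Psmc3 without wild-type replicate 3 (0.0039). Of the 6, 0 were called. At an unadjusted p under 0.05, 2 of the 6 passed in edgeR. Psmc2 came closest: it was at 155, 162 and 172 CPM in wild type and 103, 130.3 and 153 CPM in the knockout, where every knockout library was below every wild-type library (-0.34 ± 0.13, adjusted p = 0.0523). Psmc4 went from 310.0 ± 17.9 to 257 ± 33.3 CPM (-0.27 ± 0.11, adjusted p = 0.0651). These values moved with the processing. Without knockout replicate 3, 3 of the 6 were called lower, beside 4407 of all 15258 genes. With length and GC trends taken out, all 6 were called lower, beside 5756 of all 14830 genes. Their log2 fold changes ran from -0.51 for Psmc2 to -0.17 for Psmc3, with adjusted p-values (edgeR) from 9.34e-05 to 0.0318. That setting shifted the median log2 fold change over all genes by -0.09. Psmc2 was the 1 ATPase called with limma-voom, and 0 were called with DESeq2.

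Of the base subunits without ATPase activity, Psmd1 and Psmd2 are scaffolds that bind ubiquitin receptors and Psmd4 is itself a ubiquitin receptor. Of these 3 genes 0 were called (also 0 with DESeq2 and with limma-voom, and 0 at an unadjusted p under 0.05 in edgeR). Psmd1 was at 496, 490.4 and 512 CPM in wild type and 446, 437 and 426 CPM in the knockout. Those groups did not overlap, and the log2 fold change was -0.19 ± 0.09 (adjusted p = 0.103). It was called lower without knockout replicate 1 (-0.20, adjusted p = 0.0398) and with the length and GC trend removed (-0.34, adjusted p = 0.000160). Psmd2 was at 524, 542 and 553 CPM in wild type and at 646, 567 and 573 CPM in the knockout, also without overlap and in the other direction (0.14 ± 0.10, adjusted p = 0.264). These 2 transcripts are similarly long, 3112 and 3001 bases. Psmd4 went from 212 ± 11.5 to 221 ± 29.0 CPM (adjusted p = 0.678).

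The lid held 3 of the 6 calls, with 2 genes lower and 1 higher among 8, or 37.5% beside 55.7% of all tested genes. Psmd11, a scaffold subunit of the lid whose high expression has been linked to high proteasome activity in human stem cells, was at 150.4, 151 and 136 CPM in wild-type replicates 1 to 3 and at 80.8, 88.5 and 95.7 CPM in knockout replicates 1 to 3. It fell by 39.4% (log2 fold change -0.72 ± 0.10, adjusted p = 0.000128, edgeR), with no overlap between the groups. Psmd7, the partner of the deubiquitinase subunit in the lid, was at 151, 138 and 155 CPM in wild type and at 81.3, 92.05 and 102 CPM in the knockout, again with no overlap. It fell by 37.9% (-0.69 ± 0.11, adjusted p = 0.000291). Over the 15 alternatives the log2 fold change of Psmd11 ranged from -0.86 to -0.60 and that of Psmd7 from -0.84 to -0.57. In the authors' deposited table the log2 fold changes were -0.71 and -0.68.

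Psmd8, a further lid gene, moved the other way. It was at 169.5, 174 and 181 CPM in wild type and 183, 228 and 247 CPM in the knockout, above every wild-type library in each case but by a small margin in knockout replicate 1. The log2 fold change was 0.33 ± 0.12 (adjusted p = 0.0365), and the call ended when any single library but knockout replicate 1 was left out (adjusted p 0.0794 to 0.125). Psmd14, the deubiquitinase of the lid and the partner of Psmd7, was at 204 ± 13.4 CPM in wild type and 190.0 ± 38.1 CPM in the knockout (-0.10 ± 0.14, adjusted p = 0.571). Psmd3, Psmd6, Psmd12 and Psmd13 had log2 fold changes from -0.13 to 0.09 and adjusted p-values from 0.307 to 0.886.

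A ratio taken within each library sets the called genes against the complex they belong to. Here the level of a gene was divided by the median level of the 31 constitutive core and 19S subunits in that library. Relative to the wild-type mean of that ratio, Psmd11 was at -0.60, -0.80 and -0.93 (log2) in knockout replicates 1 to 3 and between -0.23 and 0.16 in wild type. Psmd7 was at -0.61, -0.76 and -0.85, and between -0.08 and 0.14 in wild type. Psmg2 was at 0.71, 0.88 and 0.81, with wild type between -0.07 and 0.05. Psma4 was at 0.32, 0.57 and 0.51, with wild type between -0.06 and 0.06, so that on this scale it no longer overlapped. Psmd8 was at 0.31, 0.30 and 0.18 against -0.08 to 0.07 in wild type. Psmb11 was at -0.02, -0.61 and -1.08 against -0.16 to 0.15, and its knockout replicate 1 lay inside the wild-type range. Psmd11, Psmd7, Psma4 and Psmd8 are themselves among the 31 genes.

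A short sequence was found in more promoters of 19S genes than of core genes, and the 19S stretches that hold it wholly within the 60 bases before the start are shown because the called lid gene Psmd11 and the near-called Psmc2 are among them. Promoters came from the RefSeq table on GRCm38.p6, which is not the build of the counts, and covered 250 bases before to 50 after each start. An entry was found for 38 of the 46 members (not for Psma8, Psmb1, Psmb2, Psmb7, Psmc3, Psmd3, Psmd7 and Psmg2). The letters CCGGAAG, the core of sites bound by ETS factors, were searched on both strands, and a gene with several annotated starts counted if 1 of its windows held them. They were found in 9 of 14 promoters of 19S genes (64.3%), in 1 of 12 of core genes (8.33%) and in 5 of the 12 other members. They stood in 9.93% of all 27025 genes listed there, and of the 10841 with an entry among the genes tested 18.3%. Wholly within the 60 bases before the start they stood in 6 of the 14 19S promoters (42.9%) and in 0 of the 12 core promoters, against 7.65% of tested genes. Matches that straddle the start, in the 19S gene Psmd13 and the core gene Psma6, are not in these counts. The 60 bases before the start of those 6 genes follow, with the match in capitals (CTTCCGG is the same site read from the other strand).
Psmd11 (chr11:80428555-80428614, plus strand): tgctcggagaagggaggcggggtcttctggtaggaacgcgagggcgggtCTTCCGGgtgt
Psmd12 (chr11:107479468-107479527, plus strand): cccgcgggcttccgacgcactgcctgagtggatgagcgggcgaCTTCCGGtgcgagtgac
Psmd6 (chr14:14120946-14121005, minus strand): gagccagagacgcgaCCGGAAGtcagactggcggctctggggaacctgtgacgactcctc
Psmc1 (chr12:100110142-100110201, plus strand): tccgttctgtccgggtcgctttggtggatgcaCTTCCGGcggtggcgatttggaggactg
Psmc2 (chr5:21786687-21786746, plus strand): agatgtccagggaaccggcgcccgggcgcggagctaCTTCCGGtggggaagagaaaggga
Psmd2 (chr16:20651592-20651651, plus strand): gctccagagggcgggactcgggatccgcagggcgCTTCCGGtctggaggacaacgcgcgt

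In 5 of these 6 the site reads CTTCCGG along the gene, and in those 5 it ends 4 to 21 bases before the start. Of these 6 genes, Psmd11 fell, and Psmd12, Psmd6, Psmc1, Psmc2 and Psmd2 were not called, with log2 fold changes from -0.34 to 0.14. This depended on the processing. With the length and GC trend removed, Psmd11 (-0.86), Psmc2 (-0.51), Psmc1 (-0.29), Psmd12 and Psmd6 were called lower. Psmd2 (0.05) was not called there, where 68.3% of all genes were called in either direction. The letters TGACNNNGC, the core of the antioxidant response element bound by NRF-type factors, were found in 15.8% of member promoters (among them those of Psmb5, Psmb6 and Psmc6) and in 14% of all genes in the table. The share among tested genes was 16.9%. CCAAT was found in 36.8% of member promoters, against 41.1% of all genes in the table and 42.7% of tested genes. TATAAA was found in 7.89%, against 15.7% and 8.82%. A match describes letters in this window and is not evidence of binding.

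The core and the 19S particle had medians of opposite sign. The median log2 fold change was 0.13 for the 14 constitutive core genes and -0.10 for the 17 genes of the 19S particle, and no test was made of that difference. By library, the core genes had a median of -0.30, 0.19 and 0.47 (log2 CPM against the wild-type mean) in knockout replicates 1 to 3, and the 19S genes -0.40, -0.08 and 0.09. In wild type both medians lay between -0.11 and 0.10. The core transcripts were shorter, with a median of 1163 bases against 1636. All tested genes with transcripts under 1.5 kb had -0.20, 0.09 and 0.32 in the same libraries, as given above. With the length and GC trend removed the medians were -0.06 for the core and -0.34 for the 19S genes. That setting shifted the median over all genes by -0.09. There 13 of the 17 19S genes were called lower, beside 5756 of all 14830 genes. As first analysed it was 2 of the 17, beside 4163 of all 14988 genes. Without knockout replicate 1, 12 of the 14 core genes were called higher, beside 4961 of all 15068 genes. Without knockout replicate 3 none was, beside 4260 of all 15258 genes. The median of the core was 0.33 without knockout replicate 1 and -0.06 without knockout replicate 3. That of the 19S genes was 0.0049 and -0.22, and 0.02 with total counts as the scaling, so the sign of both medians depended on these choices.

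**Figure D3:**
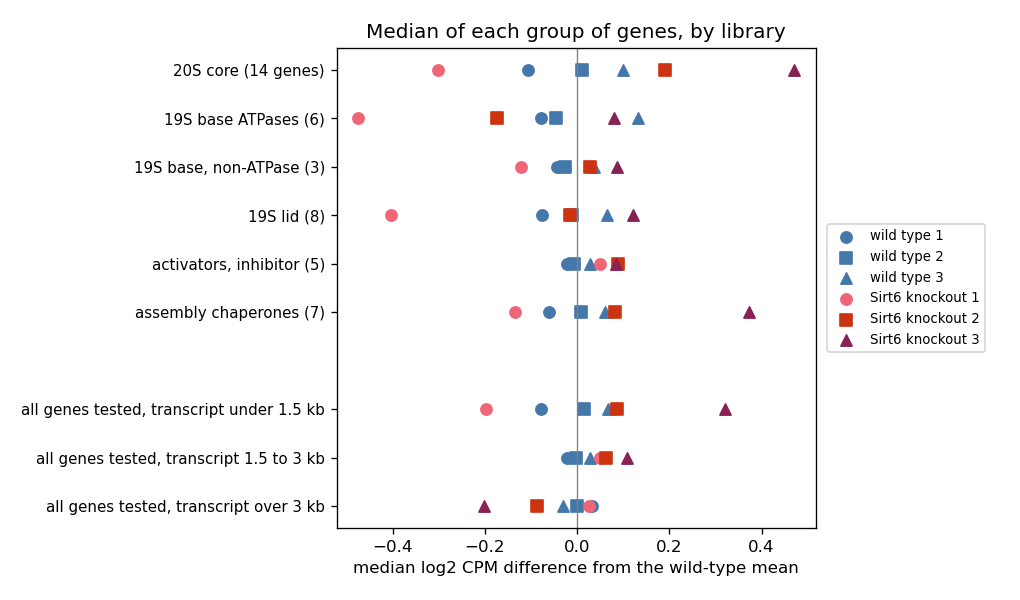
Median log2 CPM difference from the wild-type mean (x axis) in each library, for the member groups by role and, in the lower 3 rows, for all tested genes by transcript length. Blue symbols are wild-type and red symbols knockout replicates. The core genes spread from -0.30 to 0.47 among the knockout libraries, and all genes under 1.5 kb from -0.20 to 0.32.

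Levels of different subunits can be set side by side per kb of transcript. The length used is that of 1 annotated transcript per gene, the longest with a RefSeq link or else the longest, so the order is approximate. A longer transcript gives a lower level per kb. Psmd11, Psma2 and Psma3 were set at 2848, 2911 and 2846 bases, where the median of the 31 constitutive subunits was 1512. In wild type the 31 constitutive subunits ran from 51.1 ± 3.07 CPM per kb for Psmd11 to 357 ± 32.2 for Psmb6. The lowest after Psmd11 were Psma2 (89.7 ± 6.27), Psmc2 (91.3 ± 4.72), Psmc6, Psmd7 and Psmd13 (93.4, 93.6 and 93.7), which did not differ beyond their spread. The highest after Psmb6 were Psmb3 (315 ± 35.8), Psmb4 (271 ± 24.8) and Psmb7 (242 ± 17.6), whose ranges each overlapped the next. Psmd11 stood apart from all others in wild type and was lower still in the knockout (31.02 ± 2.60), where Psmd7 came next (58.1 ± 6.61). The mean level per kb of the 14 core genes was 1.46 ± 0.0485 times that of the 17 19S genes in wild type. In knockout replicates 1 to 3 that ratio was 1.45, 1.81 and 2.01, so that 1 knockout library lay within the wild-type range and the other 2 above it.

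**Figure D4:**
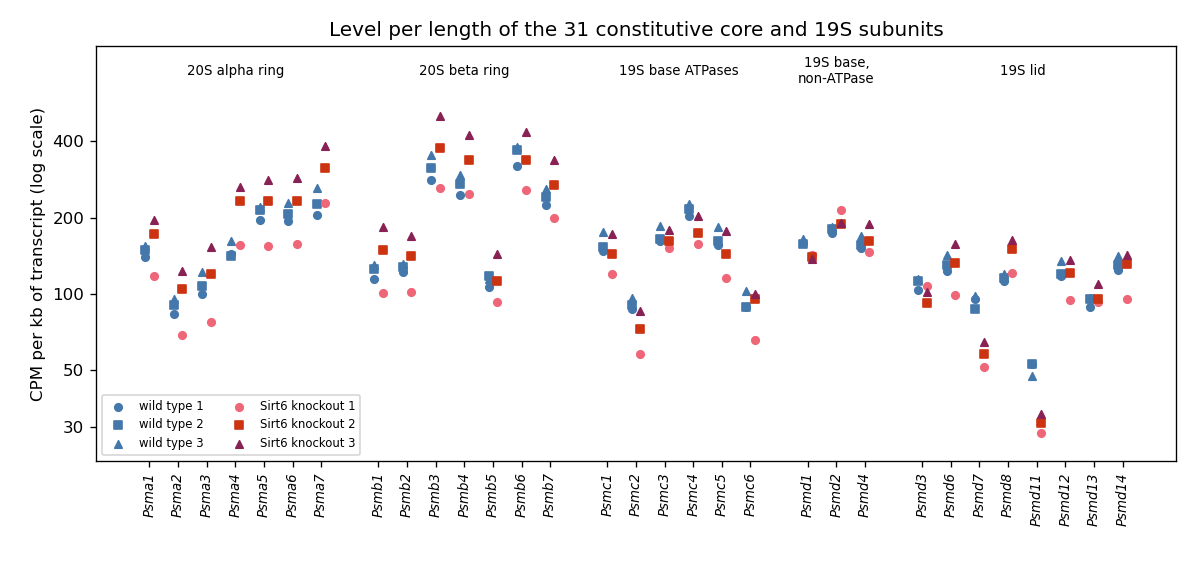
Level of the 31 constitutive core and 19S subunits in CPM per kb of transcript (y axis, log scale), by gene (x axis). Blue symbols are wild-type and red symbols knockout replicates. Psmd11 was the lowest in both groups, at 51.1 CPM per kb in wild type and 31.02 in the knockout.

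Activators open the core without the 19S particle, and 0 of the 5 genes of this group were called (also 0 with DESeq2 and with limma-voom, and 0 at an unadjusted p under 0.05 in edgeR). The genes Psme1 and Psme2, whose proteins form the interferon-inducible PA28 ring, were at 48.0 ± 3.05 and 38.6 ± 1.96 CPM in wild type and at 53.5 ± 9.57 and 48.0 ± 12.7 CPM in the knockout. Psme2 was at 36.4, 46.1 and 61.6 CPM in knockout replicates 1 to 3 and had the smallest adjusted p of the group (0.31 ± 0.16, adjusted p = 0.126). It was called higher without knockout replicate 1 (0.48, adjusted p = 0.00159) and with total counts as the scaling (0.0280), and was at 0.07 without knockout replicate 3. Psme3, the nuclear activator PA28 gamma, was at 206 ± 3.71 and 209.9 ± 5.80 CPM, with a 95% interval of the log2 fold change from -0.17 to 0.22. Psme4, the activator PA200, was at 374 ± 10.5 and 375 ± 46.8 CPM (interval -0.25 to 0.25). Its transcript, 6491 bases, is the longest of the members, and it was lowest in knockout replicate 3 (321 CPM against 405 and 397). Psmf1, a regulator named as an inhibitor of the core, was at 24.6 ± 0.337 and 25.3 ± 0.784 CPM (interval -0.16 to 0.25).

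Assembly chaperones build the particles and leave them afterwards. Of 7 such genes, 1 rose and 0 fell. Psmg2, whose protein pairs with that of Psmg1 to assemble the alpha ring, was at 35.8, 38.9 and 39.7 CPM in wild type and at 52.3, 74.1 and 83.4 CPM in the knockout, every knockout library being above every wild-type library. It rose 1.83-fold (log2 fold change 0.87 ± 0.15, adjusted p = 0.000609, edgeR), and ranged from 0.64 to 1.05 over the alternatives. Its partner Psmg1 was at 89.1 ± 7.29 and 93.9 ± 21.3 CPM (0.07 ± 0.15, adjusted p = 0.697). The other pair of core chaperones, Psmg3 and Psmg4, had log2 fold changes of -0.08 and 0.01. Among the chaperones of the 19S base, Psmd5 and Psmd9 had 0.04 and 0.05, with intervals inside 1.5-fold. Psmd10, also known as gankyrin, was at 18.96, 23.4 and 25.5 CPM in wild type and 22.1, 30.5 and 36.2 CPM in the knockout (0.38 ± 0.17, adjusted p = 0.0819). It was called higher without knockout replicate 1 (0.57, adjusted p = 0.000959) and with total counts as the scaling (0.0190). It was at 0.20 without knockout replicate 3 and at 0.05 after length and GC trends were taken out. The last of the 46, Psmc3ip, matches by its symbol but encodes a partner of the Psmc3 protein known from meiotic recombination. It was at 19.3 ± 2.80 and 18.8 ± 3.13 CPM (adjusted p = 0.797).

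Among genes of the ubiquitin-proteasome system outside the symbol rule the share called was near that of all genes. Over 6 lists, 7 of 35 tested genes rose and 12 fell, 54.3%, beside the 55.7% of all tested genes. Of 8 genes for proteins that dock on the proteasome, 0 rose and 5 fell, or 62.5%. Ecm29, listed as AI314180, which tethers the core to the 19S particle, was at 138, 131 and 128 CPM in wild type and 68.1, 65.5 and 55.6 CPM in the knockout. It fell by 52.2% (-1.07 ± 0.10, adjusted p = 9.83e-06). Usp14 and Uchl5, the deubiquitinases that bind the 19S particle from outside, were lower as well. Usp14 was at 134, 142 and 139 CPM in wild type and 54.6, 74.5 and 76.96 CPM in the knockout (-1.01 ± 0.13, adjusted p = 6.82e-05), and Uchl5 went from 103 ± 6.66 to 73.7 ± 15.5 CPM (-0.49 ± 0.14, adjusted p = 0.0137). The call of Uchl5 ended without wild-type replicate 3 (adjusted p = 0.0569). Zfand2a, an arsenite-inducible partner of the proteasome, fell from 16.7 ± 1.002 to 11.04 ± 1.64 CPM. The fifth, Zfand5, was borderline at an adjusted p of 0.0491, and did not pass with DESeq2 (0.0639), with total counts as the scaling or without any 1 of 5 libraries (all but knockout replicate 3). The subunit genes Adrm1 and Shfm1 and the core chaperone gene Pomp, which belong to the complex but carry other symbols, did not pass. Of these 3, 0 were called (adjusted p 0.234 to 0.931, 0 with DESeq2 and limma-voom, and 0 at an unadjusted p under 0.05 in edgeR). Shfm1 turned with the processing: it was at 0.15 and, with the length and GC trend removed, at -0.26 and called lower (adjusted p = 0.0382), while without knockout replicate 1 it was called higher (0.36, adjusted p = 0.00563). Adrm1 was called lower with the length and GC trend removed (-0.20, adjusted p = 0.00271).

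Of 9 genes for regulators of proteasome genes, 4 rose and 4 fell, where 27.9% of all tested genes were called higher and 27.8% lower. Nfe2l1, the factor that restores proteasome gene transcription when proteasomes are inhibited, was at 127, 127 and 123 CPM in wild type and 125, 100.4 and 85.7 CPM in the knockout, and was the only one not called (-0.27 ± 0.13, adjusted p = 0.0950). It was called lower without knockout replicate 1 (-0.42, adjusted p = 0.000849) and after length and GC trends were taken out (0.00388), and was at -0.18 without knockout replicate 3. Nfe2l2, the related factor of the oxidative stress response, fell from 79.1 ± 1.91 to 48.9 ± 3.33 CPM (-0.70 ± 0.09), and Keap1, the adaptor that sends its protein to the proteasome, from 45.5 ± 2.27 to 24.7 ± 2.60 CPM (-0.88 ± 0.11). The small Maf genes, whose proteins pair with these factors on DNA, split: Maff rose from 4.82 ± 0.456 to 10.6 ± 1.38 CPM and Mafk from 5.43 ± 0.497 to 11.1 ± 1.52 CPM, and Mafg fell by 0.74 on the log2 scale. Ddi2 and Ngly1, the protease and the glycanase that activate the Nfe2l1 protein, changed by -0.45 and 0.56 (adjusted p = 0.00597 and 0.000968). These 2 genes, Mafg and Nfe2l3 (0.33, adjusted p = 0.0471) were outside the naming rule and were chosen after their values were seen. The call of Ddi2 ended with total counts as the scaling, and that of Nfe2l3 with DESeq2 (adjusted p = 0.0653) and without any 1 library but knockout replicate 3.

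Ubiquitin genes supply the tag, and shuttles and the p97 unfoldase bring tagged substrates to the proteasome. Of 5 ubiquitin and E1 genes, 0 were called (also 0 with DESeq2 and limma-voom, and 1 at an unadjusted p under 0.05 in edgeR). Ubb, a polyubiquitin gene named after its values were seen, was at 310.1 ± 4.99 and 296 ± 59.2 CPM (adjusted p = 0.688). Of 7 tested shuttle and p97 genes, 1 rose and 3 fell, 57.1% beside the 55.7% of all tested genes. Ubqln2, an X-linked ubiquilin that brings substrates to the proteasome, was at 38.9, 43.0 and 34.3 CPM in wild type and 9.98, 9.37 and 9.76 CPM in the knockout (-1.99 ± 0.11, adjusted p = 3.13e-07). Vcp, the p97 unfoldase, went from 587 ± 5.59 to 441 ± 23.1 CPM (-0.41 ± 0.10, adjusted p = 0.00443). Its cofactor Nploc4 fell by 0.39 on the log2 scale, a call that ended with total counts as the scaling (adjusted p = 0.114) and without knockout replicate 2 (0.0595). The gene that rose, Ubqln4 (0.38 ± 0.12, adjusted p = 0.0199), lost its call without any 1 wild-type library.

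The immunoproteasome genes, which the symbol rule leaves out, encode the catalytic forms that interferon induces. Of these 3, 2 rose, where 27.9% of all tested genes were called higher. Psmb8 had 1, 2 and 1 counts in wild type and 75, 59 and 67 in the knockout. It passed the filter on low counts only through the knockout libraries. Psmb9 rose from 1.25 ± 0.117 to 7.95 ± 1.41 CPM (2.65 ± 0.19, adjusted p = 1.08e-06). Both stayed far below Psmb5 and Psmb6 per kb, at 1.66 and 5.88 CPM per kb in the knockout against 116 and 343. Psmb10 was at 28.4, 34.5 and 35.0 CPM in wild type and 17.4, 21.98 and 32.03 CPM in the knockout (-0.46 ± 0.19, adjusted p = 0.0584), and was called lower with DESeq2 (adjusted p = 0.0481) and limma-voom (0.0403), and without knockout replicate 3 (-0.75, adjusted p = 0.000932).

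**Figure D5:**
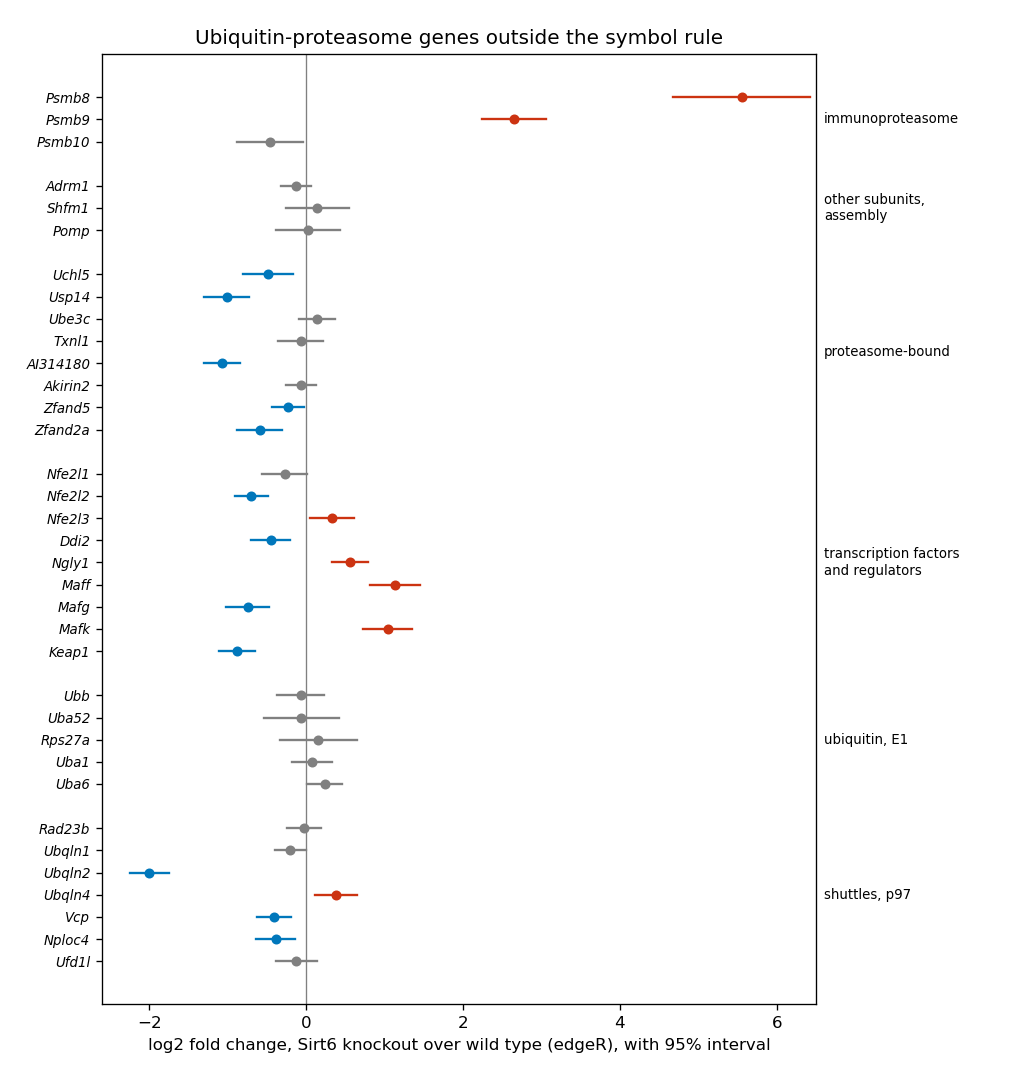
Log2 fold change, knockout over wild type, with its 95% interval (x axis) for 35 tested genes of the ubiquitin-proteasome system outside the symbol rule, in 6 lists (y axis). Red marks the 7 genes called higher, blue the 12 called lower and grey those not called. Psmb8 and Psmb9 lie far to the right, and Ubqln2 is the furthest to the left.

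Other large cytosolic complexes had called shares of 0%, 33.3% and 25%, beside 13.0% of the proteasome members and 55.7% of all tested genes (27.9% higher and 27.8% lower). Of 8 genes of the CCT chaperonin, 0 were called, with a median log2 fold change of 0.17. With DESeq2 and limma-voom 0 were called as well, and 0 passed at an unadjusted p under 0.05 in edgeR. Without knockout replicate 1, 5 of the 8 were called higher, beside 4961 of all 15068 genes. Cct4 had the largest change (0.27 ± 0.12, adjusted p = 0.0860). Of 9 genes of the COP9 signalosome, whose subunits resemble those of the 19S lid, 0 rose and 3 fell, with a median of -0.14. Cops5, its deneddylase and the counterpart of Psmd14, fell from 108 ± 0.289 to 69.2 ± 14.5 CPM (-0.64 ± 0.14, adjusted p = 0.00237). Of 12 tested genes of the initiation factor eIF3, also built on the lid's plan, 1 rose and 2 fell, with a median of -0.06. Eif3i had the largest change, a rise of 0.48 ± 0.13 (adjusted p = 0.00957). No test was made between these lists.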

How the data were processed

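RNA of 6 libraries (3 wild-type, 3 Sirt6 knockout) was analysed from the authors' deposited table of raw counts per gene symbol, with columns matched to samples by name. Named in the submitters' processing notes, without roles, are build mm9, DESeq2, HTSeq 0.6.1 and TopHat2 2.0.10. The sources used here give neither strand setting nor annotation, so genes that share reads with pseudogenes (RefSeq names 6 after members) or overlapping genes are uncertain. The authors' deposited table of the comparison holds, per the file headers, p-values (raw and adjusted), a test score, log2 fold changes with standard errors and the mean normalized signal.

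Counts were tested with edgeR 4.0.16 in R 4.3.3 (glmQLFit, glmQLFTest, two-sided, TMM, filterByExpr, which left 14988 genes), with Benjamini-Hochberg adjustment at 0.05. Log2 fold changes are fitted values, and the standard error is their size over the square root of F. CPM use TMM-scaled library sizes. Transcript length and GC content came from GENCODE M21 (GRCm38) by symbol, 1 transcript per gene, and gave no coordinates. Length trends were fitted as splines with 5 degrees of freedom. Alternatives were DESeq2 1.42.0, limma-voom 3.58.1, other scalings and filters, a replicate block and each library left out. The edgeR step was tested on simulated data. Depth limits precision through counting error only for low genes such as Psmb8 and Psmb11. Members and lists were chosen with earlier results of these data known. Named genes were Sirt6, the called members with at least 5 CPM (up to 6 each way), the smallest adjusted p per role, up to 4 called genes per related list and the largest change per comparison list. Of the related lists, 2 genes are not reported here.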

Additional observations from a re-analysis of the deposited data

How the results depend on the processing

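The count of called members moved by more than 1.5 times with several choices. The 3 members called higher became 8 with total counts, 7 with the replicate block and 1 to 19 without 1 library. The 3 called lower became 5 with the replicate block, 15 once length and GC trends were taken out, and 2 to 6 without 1 library. The 12 genes of the related lists called lower became 19 once those trends were taken out. All 6 called members were among the 12 called with the replicate block. Whether the replicate numbers pair the samples was not settled: the correlations of same-numbered deviations were 0.21, -0.03 and 0.20. Wild-type replicate 3 with knockout replicate 1 had -0.22, and wild-type replicate 1 with knockout replicate 3 had -0.21. No label ties the numbers to a batch. Psma1 (-0.18, adjusted p = 0.0181) and Shfm1 (-0.26) reversed when the length and GC trend was removed. Total counts shifted the median over all genes by 0.12 (log2) and gave 5113 higher and 3102 lower calls, against 4182 and 4163. Taking out length and GC trends shifted that median by -0.09 and gave 4372 higher and 5756 lower calls. With no filter 8 members were called, with DESeq2 and limma-voom 7 each, and with DESeq2 size factors, a filter at a mean of 1 CPM, or library sizes without Rn45s, Rmrp and Rpph1 6 each. The member median ran from -0.10 (without knockout replicate 3) to 0.17 (total counts). Of the members, 13 were called neither in the analysis as reported nor in any alternative. The cause of these shifts was not tested.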
